A study of Homo sapiens with 2 samples.

Results

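Collagen chains, other proteins of the extracellular matrix and genes typical of mesenchymal cells were followed in RNA precipitated from lysates of T47D cells, a luminal breast cancer line, by beads carrying anti-IMP1 antibody or, as a control, IgG. The 45 genes, among 18781 in the table, were chosen by gene name: 27 match the naming pattern of collagen chains and 18 belong to a list of 23 matrix and mesenchymal genes. POSTN, BGN, MMP2, SNAI2 and CAV1, the other 5 names of that list, were not analysed here. The choice was made with FPKM values of both libraries already known, so the differences between the libraries are given as a description.

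The study used RNA immunoprecipitation (RIP), in which beads coated with an antibody retain a protein together with the RNA attached to it, to look for RNA bound by IMP1, an RNA-binding protein that takes part in the localization, stability and translation of its target RNAs. Both libraries came from T47D cells of wild-type genotype with no other treatment named, 1 from beads with anti-IMP1 antibody and 1 from beads with normal IgG. With 1 library for each, and no input lysate analysed here, no difference has a replicate check and no test was run. FPKM, the number of fragments scaled to transcript length and to the size of the library, allows levels of different genes to be compared, and the number of reads behind a value is unknown.

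Collagens are made as triple helices of 3 chains, which may come from 1 gene or from several. Fibrillar collagens such as types I, III and V build the fibres of connective tissue, type IV forms the network of basement membranes, and fibril-associated types sit on the surface of fibres. Fibroblasts are their main source, together with fibronectin, fibrillin and the small proteoglycans decorin and lumican. Epithelial cells that pass through an epithelial-mesenchymal transition (EMT) take up part of this program under factors such as ZEB1, ZEB2 and TWIST1. Luminal breast cancer lines are epithelial and are known for low levels of vimentin and of fibrillar collagens.

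The labelled cell type was visible in both libraries. All 15 markers of luminal breast epithelium were measured, and 14 of them were at 1 FPKM or more with the IMP1 antibody and 13 with IgG. KRT8, a luminal keratin, had 162 FPKM with the IMP1 antibody and 76.8 FPKM with IgG. The oestrogen receptor gene ESR1 had 9.60 and 9.04 FPKM. Other luminal markers were less even: CLDN4 had 64.7 and 0.393 FPKM, and TFF1 had 0.869 FPKM with the IMP1 antibody and was listed at 0 with IgG. The FPKM of all genes summed to 353885 with the IMP1 antibody and 1298360 with IgG. Values above 0 but under 0.1 FPKM were held by 1753 genes with the IMP1 antibody and by 383 with IgG.

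Sequence from the start of 3 genes is shown, each for its place among the members: FN1 had the highest value with IgG, COL12A1 was the highest collagen chain with the IMP1 antibody, and COL4A5 was above 0 in the IMP1 library but listed at 0 with IgG. RefSeq windows of assembly GRCh38.p14 were matched by symbol for 31 of the 45 members, and the 250 bases before the start were read on the strand of the gene. FN1 lies on the minus strand, at chr2:215436069-215436318, COL12A1 on the minus strand at chr6:75206054-75206303 and COL4A5 on the plus strand at chrX:108439588-108439837. Capitals mark the letters searched on both strands, where neighbouring GC boxes may overlap. The TATA box was searched as TATAA, the CCAAT box by those letters, the GC box as GGGCGG, the cAMP response element as TGACGTCA and the E-box as CAGGTG.
FN1: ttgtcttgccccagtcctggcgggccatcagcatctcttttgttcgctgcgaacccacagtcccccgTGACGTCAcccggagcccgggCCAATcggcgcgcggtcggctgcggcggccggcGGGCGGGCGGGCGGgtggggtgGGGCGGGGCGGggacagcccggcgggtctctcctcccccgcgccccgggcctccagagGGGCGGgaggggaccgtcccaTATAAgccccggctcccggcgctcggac
COL12A1: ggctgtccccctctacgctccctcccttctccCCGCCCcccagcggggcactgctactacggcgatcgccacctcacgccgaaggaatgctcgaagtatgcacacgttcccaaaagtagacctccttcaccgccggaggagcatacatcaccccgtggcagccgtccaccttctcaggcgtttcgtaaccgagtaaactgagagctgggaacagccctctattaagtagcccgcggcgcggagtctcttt
COL4A5: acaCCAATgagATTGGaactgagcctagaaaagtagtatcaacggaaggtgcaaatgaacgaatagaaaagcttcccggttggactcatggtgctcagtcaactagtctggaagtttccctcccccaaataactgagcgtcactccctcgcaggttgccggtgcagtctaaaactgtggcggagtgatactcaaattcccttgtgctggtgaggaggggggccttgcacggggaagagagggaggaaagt

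In FN1 a cAMP response element begins at position -183 counted from the start, a CCAAT box at -162 and a TATA box at -28. Over the 51 windows of members, a TATA box was present in 25.5%, against 18.9% of all 35116 windows in the reference. A GC box was present in 58.8% of the members' windows and 42.6% of all, a CCAAT box in 19.6% and 32%, and an E-box in 15.7% and 17.5%. The cAMP response element was found in 1 of the members' windows, which is that of FN1, and in 1.65% of all windows. The stretch shown for COL4A5 lies between its start and that of COL4A6 on the other strand, which are separated by 379 bases. These letters describe the windows and say nothing of factors bound there, since RNA on beads was measured.

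In the IgG precipitate 20 of the 45 genes reached 1 FPKM, and in the IMP1 precipitate 6 did. With IgG this is 44.4% of the members against 46.4% of all genes, while with the IMP1 antibody it is 13.3% against 52.3%. Thus the share at this level was near that of all genes in the control precipitate and below it in the IMP1 precipitate. Their FPKM summed to 279 with IgG and 21.4 with the IMP1 antibody, a quotient of 13.0, where the quotient of the sums over all genes was 3.67. FN1 made up 28.6% of the IgG sum, and without it the quotient was 9.91. TIMP1 made up 39.0% of the IMP1 sum.

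Values were set against each other on the log2(FPKM + 0.1) scale, IMP1 antibody minus IgG, which understates the change of low genes. Of the 45 genes, 26 were at least 2-fold lower with the IMP1 antibody (57.8%), where 29.9% of all genes were. At least 2-fold higher were 6 of them (13.3%), where 39.9% of all genes were. The median log2 ratio was -1.57 over the 45 genes and 0.40 over all genes. Of the 45, 20 were above 0 in both libraries, 13 were listed at 0 with the IMP1 antibody and 12 were listed at 0 with IgG. Of all 18781 genes, 10047 were above 0 in both, 1236 with IgG alone and 7186 with the IMP1 antibody alone. Among the 20 above 0 in both, 14 were at least 2-fold lower (70.0%) and 0 were higher, and the median log2 ratio was -2.18. Among all genes above 0 in both, 44.6% were at least 2-fold lower, 1699 of 10047 were at least 2-fold higher, and the median was -0.77.

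**Figure D1:**
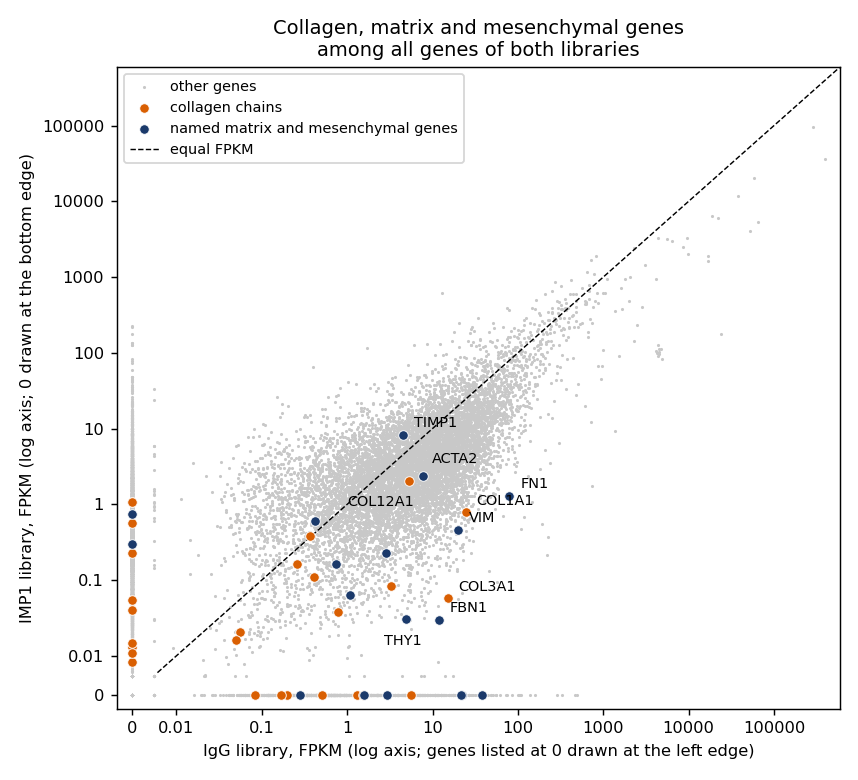
Each point is a gene, with its FPKM in the IgG library on the horizontal axis and in the IMP1 library on the vertical axis, both on log axes with the lowest values drawn at the edge. Collagen chains are orange, the 18 matrix and mesenchymal genes are dark blue, and FN1, COL1A1, VIM, COL3A1 and FBN1 lie at the lower right edge of the cloud of all genes, while TIMP1 lies above the line of equal FPKM.

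The 3 matrix glycoproteins had a median log2 ratio of -5.83. FN1 (ENSG00000115414, chromosome 2, 216225163 to 216300895 in hg19) encodes fibronectin, which links cells to the matrix through integrins. It had 79.7 FPKM with IgG and 1.30 FPKM with the IMP1 antibody, a quotient of 61.2 and a log2 ratio of -5.83. It ranked at percentile 97.8 of all genes with IgG and at 52.9 with the IMP1 antibody. FBN1, which encodes the microfibril protein fibrillin-1, had 11.9 FPKM with IgG and 0.0300 FPKM with the IMP1 antibody. SPARC, a collagen-binding protein of the matrix, had 2.96 FPKM with IgG and was listed at 0 with the IMP1 antibody. All 3 were at least 2-fold lower in the IMP1 precipitate. Under the 3 rescalings of the IMP1 values FN1 and FBN1 stayed past 2-fold, while SPARC, at 0, cannot change.

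The small leucine-rich proteoglycans decorin and lumican bind collagen fibrils and regulate their diameter. Their genes are neighbours on chromosome 12 in hg19, LUM from 91496406 to 91505608 and DCN from 91539025 to 91576900. DCN had 37.5 FPKM with IgG, at percentile 94.7 of all genes, and LUM had 22.0 FPKM. Both were listed at 0 in the IMP1 library, so that no fold is given. With ZEB2, they are the 3 of the 8 members at 10 FPKM or more with IgG that were listed at 0 with the IMP1 antibody. Of all 3720 genes at that level with IgG, 118 were.

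Being listed at 0 at such levels was uncommon in the table. Of the 20 members at 1 FPKM or more with IgG, 8 were listed at 0 in the IMP1 library (40.0%), where 5.72% of all genes at that level were. The 8 genes were DCN, LUM, ZEB2, COL1A2, SPARC, PDGFRA, COL21A1 and COL6A2. Among low values of the IMP1 library, 28 members were above 0 and under 1.1 FPKM. The limit was set after the values were seen so as to hold COL9A2. Of these, 12 were listed at 0 with IgG (42.9%), against 67.3% of all genes in that range. This range of low values is unlike the level of 1 FPKM or more used above, so the shares are not counterparts. The share listed at 0 with IgG among all genes at 1 FPKM or more with the IMP1 antibody was not counted.

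**Figure D2:**
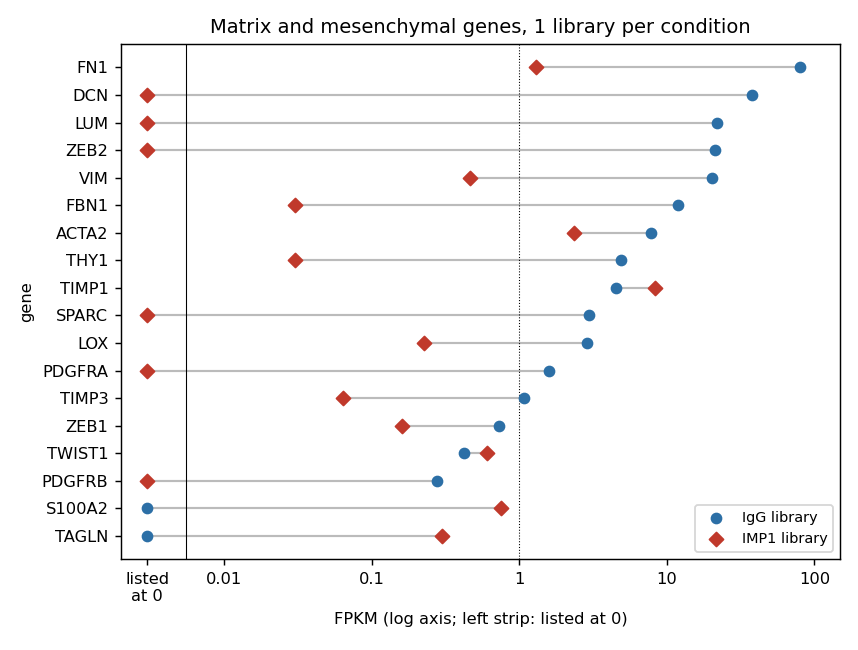
FPKM on a log axis for the 18 matrix and mesenchymal genes, with circles for the IgG library and diamonds for the IMP1 library; the strip at the left holds values listed at 0, and the dotted line marks 1 FPKM. From FN1 down to ACTA2 the diamonds lie left of the circles, and TIMP1, TWIST1, S100A2 and TAGLN are the 4 genes whose diamond lies to the right.

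The cytoskeletal and contractile genes differed among themselves. VIM, the intermediate filament protein of mesenchymal cells, had 20.1 FPKM with IgG and 0.463 FPKM with the IMP1 antibody, a quotient of 43.4. ACTA2, smooth muscle actin, had 7.79 and 2.36 FPKM, a log2 ratio of -1.68 that became 0.15 with the FPKM sums of both libraries made equal. TAGLN, an actin-binding protein of smooth muscle, was listed at 0 with IgG and had 0.299 FPKM with the IMP1 antibody. The file gives the position of a locus, which can hold several genes, and ACTA2 shares its locus with STAMBPL1 and with FAS, which had 13.2 FPKM with IgG and 4.60 FPKM with the IMP1 antibody. VIM shares its locus with its antisense transcript VIM-AS1, listed at 0 with IgG and at 0.172 FPKM with the IMP1 antibody. RP11-124N14.3, on the same locus, had 1.78 FPKM with IgG and 0.141 FPKM with the IMP1 antibody.

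Among the EMT transcription factors, which repress epithelial genes, ZEB2 stood out. It had 21.3 FPKM with IgG and was listed at 0 in the IMP1 library. ZEB2-AS1, the antisense transcript on the same locus, had 10.8 FPKM with IgG and was also listed at 0 with the IMP1 antibody. ZEB1 was low in both, with 0.732 FPKM with IgG and 0.161 FPKM with the IMP1 antibody, and its antisense partner ZEB1-AS1 had 3.90 and 0.491 FPKM. Whether the counting used the strand is not given in the sources used here, so reads of a gene and of its antisense partner cannot be told apart. TWIST1 had 0.424 FPKM with IgG and 0.605 FPKM with the IMP1 antibody, a log2 ratio of 0.43. ZEB2 and ZEB1 were thus at least 2-fold lower with the IMP1 antibody, TWIST1 was within 2-fold, and only ZEB2 passed 1 FPKM. The log2 ratio of ZEB1, -1.67, became -0.27 with the FPKM sums made equal, and that of TWIST1 became 2.15.

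Membrane proteins of mesenchymal cells were lower or unseen in the IMP1 precipitate. THY1, a glycoprotein on the surface of fibroblasts, had 4.85 FPKM with IgG and 0.0303 FPKM with the IMP1 antibody. The receptors for platelet-derived growth factor, PDGFRA and PDGFRB, had 1.59 and 0.277 FPKM with IgG, and both were listed at 0 with the IMP1 antibody. PDGFRA has a listed locus that overlaps 4 other genes of the table, among them FIP1L1 with 40.1 FPKM in the IgG library.

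Enzymes and inhibitors of the matrix were on both sides. TIMP1, a secreted inhibitor of matrix metalloproteinases, had 8.35 FPKM with the IMP1 antibody and 4.53 FPKM with IgG, a quotient of 1.84 and a log2 ratio of 0.87. With the IMP1 antibody it was the highest of the 45 genes, at percentile 86.4 of all genes. TIMP3, an inhibitor that binds to the matrix, was instead at 1.08 FPKM with IgG and 0.0641 FPKM with the IMP1 antibody. LOX, the lysyl oxidase that cross-links collagen, had 2.85 and 0.226 FPKM. TIMP1 shares its listed locus with SYN1 and ARAF, and ARAF had 11.8 FPKM with the IMP1 antibody and 6.96 FPKM with IgG. In all, 13 of the 45 members have a locus that overlaps another gene of the table.

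S100A2, a calcium-binding protein of basal epithelium, was listed at 0 with IgG and had 0.751 FPKM with the IMP1 antibody. Across the 18 matrix and mesenchymal genes, 14 were at least 2-fold lower with the IMP1 antibody (77.8%) and 2 at least 2-fold higher (11.1%), against 29.9% and 39.9% of all genes. The 2 higher genes were S100A2 and TAGLN. The median log2 ratio of the 18 genes was -3.63. TIMP1 and TWIST1 were within 2-fold on the deposited scale. With the FPKM sums made equal their log2 ratios became 2.73 and 2.15, past 2-fold higher, as were 63.7% of all genes there. TIMP1 was past 2-fold higher under all 3 rescalings of the IMP1 values.

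The 27 collagen chains were more mixed. With the IMP1 antibody 12 were at least 2-fold lower (44.4%) and 4 at least 2-fold higher (14.8%), where 29.9% of all genes were lower and 39.9% higher, and the median log2 ratio was -0.46. In the IgG library 17 were above 0, in the IMP1 library 20, and in both 10. Of all 18781 genes, 11283 were above 0 with IgG, 17233 with the IMP1 antibody and 10047 in both. Among the 10 chains above 0 in both, 6 were at least 2-fold lower and 0 were higher. Of all genes above 0 in both, 44.6% were lower and 1699 of 10047 higher. The median of the 27 chains was 0.17 with the FPKM sums made equal, so its sign depends on the scale.

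**Figure D3:**
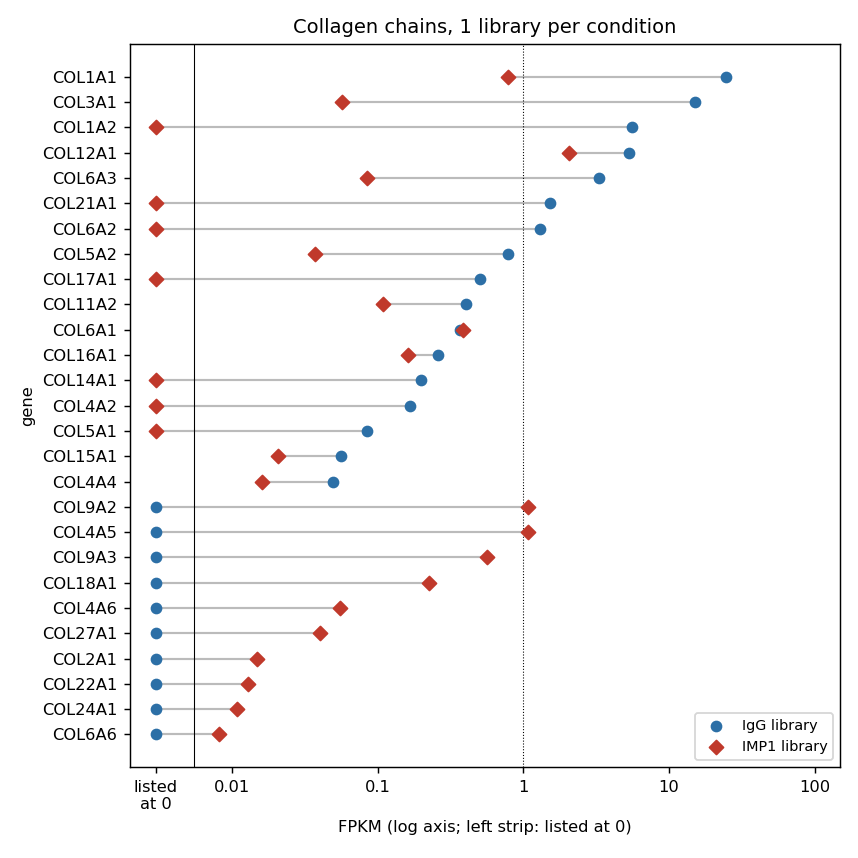
FPKM on a log axis for the 27 collagen chains, with circles for the IgG library and diamonds for the IMP1 library; the strip at the left holds values listed at 0, and the dotted line marks 1 FPKM. COL1A1, COL3A1 and COL1A2 lead the IgG library, and the 10 chains at the bottom, led by COL9A2 and COL4A5, are above 0 only with the IMP1 antibody.

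Chains of the major fibrillar collagens carried most of the collagen signal with IgG. COL1A1 (ENSG00000108821, chromosome 17, 48260650 to 48278993 in hg19), the first chain of type I collagen, had 24.4 FPKM with IgG and 0.791 FPKM with the IMP1 antibody, a quotient of 30.9. Its partner chain COL1A2 had 5.61 FPKM with IgG and was listed at 0 with the IMP1 antibody. As RNA in the IgG library, the value of COL1A1 was 4.36 times that of COL1A2. The type I protein mostly holds more of the first chain than of the second, but chains in the protein are a different measure. COL3A1, whose product forms fibres with type I collagen, had 15.1 FPKM with IgG and 0.0574 FPKM with the IMP1 antibody, a log2 ratio of -6.59. These 3 chains ranked at percentiles 91.1, 72.0 and 85.8 of all genes in the IgG library, in the order COL1A1, COL1A2, COL3A1.

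Minor fibrillar chains were low in both libraries. COL5A2, which helps to start the assembly of fibres, had 0.781 FPKM with IgG and 0.0375 FPKM with the IMP1 antibody, and COL5A1 had 0.0841 FPKM with IgG and was listed at 0 with the IMP1 antibody. COL11A2, a chain of cartilage, had 0.407 and 0.110 FPKM. COL2A1, COL24A1 and COL27A1 were listed at 0 with IgG and were between 0.0108 and 0.0402 FPKM with the IMP1 antibody. Altogether 5 of the 9 fibrillar chains were at least 2-fold lower with the IMP1 antibody (55.6%, against 29.9% of all genes) and 0 were higher (39.9% of all genes).

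The chains of type VI collagen, which forms beaded filaments in the pericellular matrix, differed from each other. COL6A3 had 3.28 FPKM with IgG and 0.0841 FPKM with the IMP1 antibody, and COL6A2 had 1.31 FPKM with IgG and was listed at 0 with the IMP1 antibody. COL6A1, which assembles with both, had 0.367 and 0.383 FPKM, a log2 ratio of 0.05 that became 1.69 with the FPKM sums made equal. COL6A6 was listed at 0 with IgG and had 0.00823 FPKM with the IMP1 antibody.

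Fibril-associated collagens were on both sides. COL12A1, found on fibres in dense connective tissue, had 5.29 FPKM with IgG and 2.04 FPKM with the IMP1 antibody, the highest collagen value in the IMP1 library. Its log2 ratio of -1.33 became 0.50 with the FPKM sums made equal. COL21A1 had 1.51 FPKM with IgG and COL14A1 had 0.198 FPKM, and both were listed at 0 with the IMP1 antibody. COL9A2 and COL9A3, chains of the type IX collagen of cartilage, were listed at 0 with IgG and had 1.08 and 0.564 FPKM with the IMP1 antibody. COL16A1 was low in both, with 0.261 and 0.163 FPKM, and COL22A1 had 0.0130 FPKM with the IMP1 antibody alone.

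Type IV chains, the network of basement membranes, were at or under 0.167 FPKM with IgG. COL4A5 was listed at 0 with IgG and had 1.07 FPKM with the IMP1 antibody. COL4A6, which lies head to head with it on chromosome X at a distance of 346 bases in the table, was listed at 0 with IgG and had 0.0552 FPKM, so that COL4A5 was 19.4 times as high. COL4A2 had 0.167 FPKM with IgG and was listed at 0 with the IMP1 antibody, and COL4A4 had 0.0498 and 0.0160 FPKM. The membrane-spanning collagen COL17A1, a part of hemidesmosomes, had 0.507 FPKM with IgG and was listed at 0 with the IMP1 antibody. Of the multiplexins, COL18A1, the source of endostatin, was listed at 0 with IgG and had 0.224 FPKM with the IMP1 antibody, and COL15A1 had 0.0563 and 0.0208 FPKM.

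**Figure D4:**
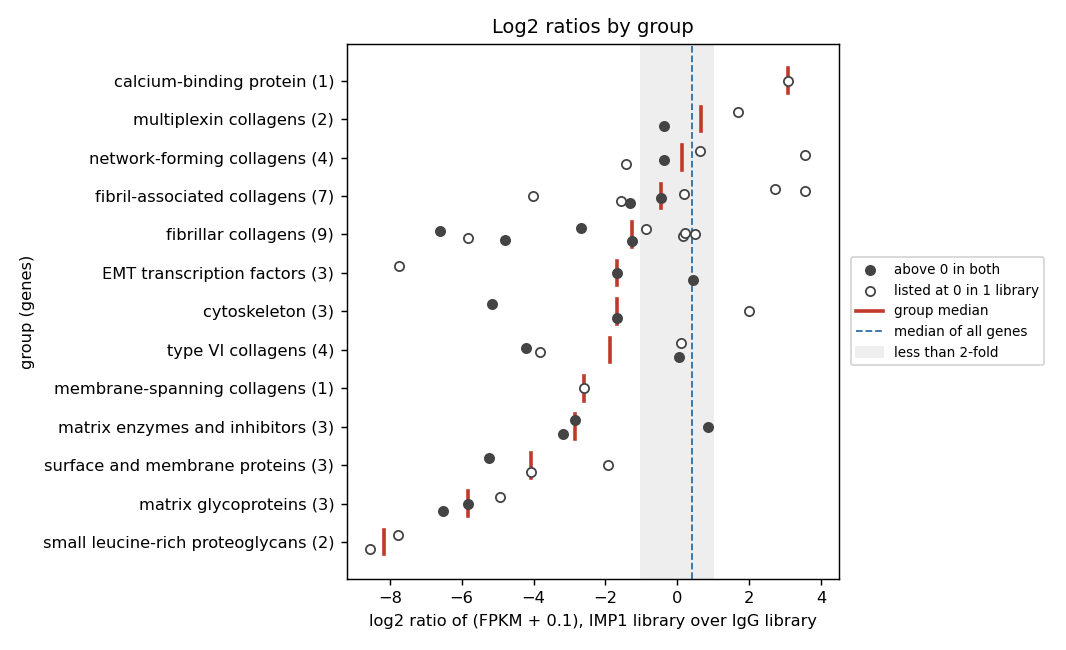
Log2 ratio of FPKM + 0.1, IMP1 library over IgG library, for each of the 45 genes by group, with filled points for genes above 0 in both libraries, open points for genes listed at 0 in 1 of them, red bars for group medians, a dashed line for the median of all genes (0.40) and grey for less than 2-fold. Group medians run from -8.17 for the small leucine-rich proteoglycans to 3.09 for the single gene S100A2.

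The differences depend on the scale of the IMP1 values, except for genes listed at 0 with the IMP1 antibody, whose ratio no factor can change. Multiplying all IMP1 values by 1 factor, set on genes at 1 FPKM or more in both libraries to bring their median ratio to 1, moved the median log2 ratio of all genes from 0.40 to 0.96, and making the sums equal moved it to 1.87. Of the 45 members, 19 reached 1 FPKM with IgG and were at least 2-fold below that value with the IMP1 antibody, and 8 of these were listed at 0 there. Of the other 11, 9 stayed past 2-fold under all 3 rescalings (81.8%), and ACTA2 and COL12A1 did not. Among all genes picked the same way and above 0 in both libraries, 29.5% stayed. Both sets were picked through the library in which they are high, and the shares are a description. FN1, for which the log2 ratio was -5.83, had -4.03 with equal sums.

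Of 12 markers of fibroblasts, 8 were measured, of which 6 were at least 2-fold lower with the IMP1 antibody (75.0%) and 1 higher (12.5%), against 29.9% and 39.9% of all genes. Of the 12, 6 also stand in the list of other mesenchymal genes counted further on, so these lists are not separate. The FPKM of the 8 summed to 43.9 with IgG and to 0.624 with the IMP1 antibody. The highest were the complement proteases C1R, with 19.5 FPKM with IgG and 0.139 FPKM with the IMP1 antibody, and C1S, with 12.6 FPKM with IgG and listed at 0 with the IMP1 antibody. MFAP5, MFAP4 and PRRX1 were likewise listed at 0 with the IMP1 antibody, with 1.70 to 6.35 FPKM in the control. FAP and CDH11, which define activated fibroblasts, were listed at 0 with IgG and had 0.0889 and 0.342 FPKM with the IMP1 antibody. PDPN, DPT, SFRP2 and TWIST2 were not analysed here. The part of such cells in the values of collagens and mesenchymal genes was not tested, and fewer cells of a type cannot be told apart from less RNA per cell or from less RNA on the beads.

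Few markers of other cells were measured. Of 12 endothelial markers, 4 were measured, with a sum of 1.32 FPKM with IgG and 3.15 FPKM with the IMP1 antibody. Of 14 leukocyte markers, 3 were measured, with sums of 4.88 and 0.871 FPKM. CD14 and CD163 were listed at 0 with IgG, while CD68 had 4.88 FPKM with IgG and 0.369 FPKM with the IMP1 antibody. Of 11 markers of basal epithelium, 7 were measured, with sums of 0.525 and 19.1 FPKM, of which SFN alone had 17.6 FPKM with the IMP1 antibody. SFN, TP63, KRT15 and KRT17 were all listed at 0 with IgG and above 0 with the IMP1 antibody. KRT14 and DSG3 went the other way, with 0.294 and 0.0765 FPKM with IgG and both listed at 0 with the IMP1 antibody. Luminal markers summed to 832 FPKM with IgG and to 1982 FPKM with the IMP1 antibody. Of the 15, 9 were at least 2-fold higher with the IMP1 antibody (60%) and 0 lower, against 39.9% and 29.9% of all genes.

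Machinery that makes and secretes collagen did not share the pattern of the chains. Of 20 genes measured, 7 were at least 2-fold lower with the IMP1 antibody (35.0%) and 8 at least 2-fold higher (40.0%), near the 29.9% and 39.9% of all genes, and the median log2 ratio was 0.64. With equal sums 0 were lower and 13 higher. On the deposited scale 17 of the 20 were above 0 in both libraries, and of these 41.2% were lower and 5 higher. Of all genes above 0 in both, 44.6% were lower and 1699 of 10047 higher. P4HB, a subunit of the prolyl hydroxylase that stabilizes the helix and a general chaperone of disulphide bonds, had 222 FPKM with the IMP1 antibody and 66.4 FPKM with IgG. PPIB, a prolyl isomerase, had 175 and 195 FPKM. SERPINH1, a chaperone of procollagen, had 28.9 FPKM with the IMP1 antibody and 13.5 FPKM with IgG, and CRTAP, which works in prolyl hydroxylation, had 24.0 and 15.1 FPKM. COLGALT1, which adds sugar to collagen, had 14.5 and 6.71 FPKM, and FKBP14 had 3.50 and 1.02 FPKM. The lower side was led by MIA3, which loads procollagen into transport vesicles, with 2.93 FPKM with the IMP1 antibody and 17.7 FPKM with IgG, its partner CTAGE5 with 2.54 and 15.2 FPKM, and the chaperone FKBP10 with 1.45 and 9.43 FPKM. Each of these genes works on many or all collagens, and several serve other secreted proteins.

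Of the matrix receptors, 9 of 22 were at least 2-fold lower (40.9%) and 4 were higher (18.2%), against 29.9% and 39.9% of all genes. With equal sums these became 2 lower and 10 higher, against 13% and 63.7% of all genes. DDR1, the collagen receptor of epithelial cells, was similar in both, with 37.2 FPKM with the IMP1 antibody and 45.9 FPKM with IgG. The heparan sulphate proteoglycans SDC4 and SDC1 went opposite ways, SDC4 with 17.8 FPKM with the IMP1 antibody and 94.2 FPKM with IgG and SDC1 with 8.10 and 2.54 FPKM. Of 15 laminin chains and basement membrane partners, 6 were at least 2-fold lower (40.0%) and 3 higher, beside the same shares of all genes, and with equal sums 3 lower and 8 higher. Counting only genes above 0 in both libraries on the deposited scale, 8 of 17 receptors were lower (47.1%) and 4 higher. Of 9 laminins and partners 5 were lower (55.6%) and 1 higher. All genes counted so had 44.6% lower and 1699 of 10047 higher. LAMB2 had 12.9 FPKM with the IMP1 antibody and 54.0 FPKM with IgG, and LAMA5 had 1.81 and 26.9 FPKM.

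For the remaining lists the shares of all genes are again 29.9% lower and 39.9% higher, or 13% and 63.7% with equal sums. Of 22 other mesenchymal genes, 11 were at least 2-fold lower and 5 higher (22.7%), and with equal sums 6 lower and 9 higher. Matrix proteases and their inhibitors had 5 of 10 lower and 1 higher, or 3 and 5 with equal sums. Collagen processing and cross-linking had 1 of 8 lower and 2 higher, or 0 and 7 with equal sums. TGF-beta ligands, receptors and signal carriers, which drive matrix production in fibroblasts, had 6 of 15 lower and 3 higher, or 3 and 8 with equal sums. Counting only genes above 0 in both libraries, 44.6% of all genes were lower on the deposited scale. There, 63.6% of other mesenchymal genes, 60% of proteases and inhibitors, 25% of processing genes and 41.7% of TGF-beta genes were lower.

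**Figure D5:**
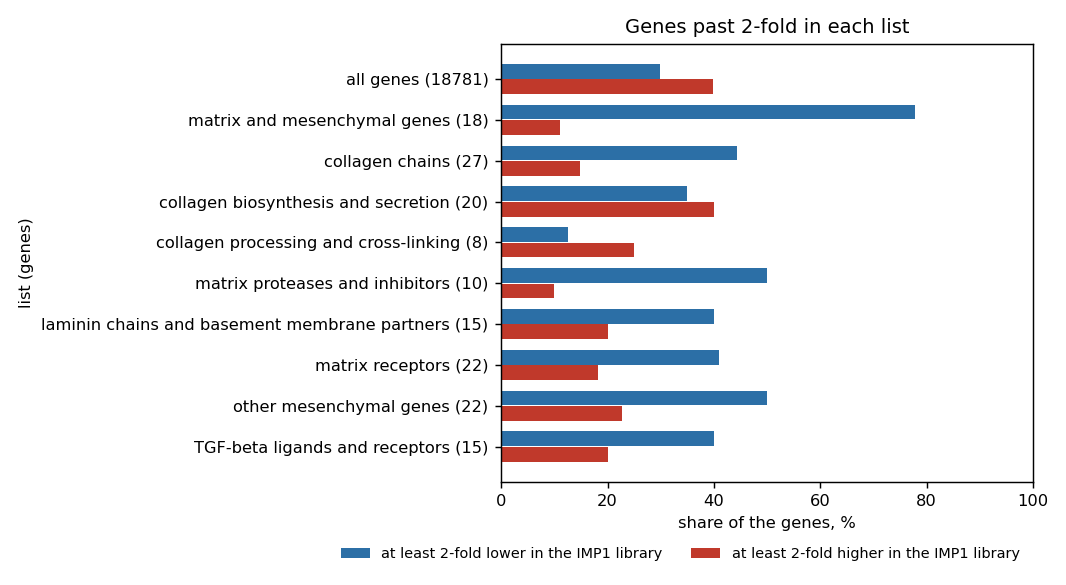
Share of the measured genes of each list, in percent, that was at least 2-fold lower (blue) or at least 2-fold higher (red) in the IMP1 library on the FPKM + 0.1 scale, with the number of genes in brackets. The 18 matrix and mesenchymal genes reach 77.8% lower, the collagen chains 44.4%, and the genes of collagen biosynthesis and secretion 35.0%, where all genes reach 29.9%.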

How the data were processed

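RNA from 1 IMP1 antibody and 1 IgG precipitate of T47D cells was sequenced. FPKM per gene were deposited by the authors, whose processing notes name hg19. The aligner, the quantification software, the annotation and strand use are not given in the sources used here. The authors wrote zeros as 1e-05, which were read as 0, as were 346 smaller values with the IMP1 antibody and 228 with IgG. Locus starts were raised by 1. The fold changes, p-values and q-values of the authors' own comparison, and 3 tables of genes selected by it, were not used.

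With 1 library per condition, no test was run: log2 ratios of FPKM + 0.1 were taken over 18781 genes, and those of at least 2-fold counted. FPKM hold no depth, so no counting interval is given. The members and all lists were chosen with earlier results of these data known. Members at 1 FPKM or more in a library were to be named, and, of those listed at 0 in 1 library, the ones at 0.3 FPKM or more in the other; the rest are named after their values were seen. From the pathway lists, the 5 highest genes of each library and the 5 largest and 5 smallest ratios at 1 FPKM or more in both were named, beside FAS, FIP1L1 and ARAF, which overlap members. Alternatives were other pseudocounts, filters, scalings and a 4-fold threshold. The counting was tested on simulated data, with 4-fold changes placed only in genes with a mean of 1 FPKM or more. It therefore does not cover lower genes or those listed at 0. Python 3.11.15, numpy 2.4.6, pandas 2.3.3 and matplotlib 3.10.9 were used.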

Additional observations from a re-analysis of the deposited data

How the results depend on the processing

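No paired analysis was possible because each condition has 1 library, and for the same reason leaving out a replicate leaves nothing to compare. Of 186 alternative values, 94 kept the direction and lay within 1.5 times of a count or 0.1 of a median log2 ratio, 91 moved further and 1 reversed. Some of the 94 could not change. The count of members at 1 FPKM or more with IgG is fixed, since only IMP1 values were rescaled. For the same reason members listed at 0 with the IMP1 antibody keep their ratios, and the rescaled counts and medians of all members, collagen chains and other members include them. The median of members above 0 in both libraries is fixed under the filter for such genes. The cause of these moves was not tested, and the depth behind the FPKM is unknown. Counts are of genes at least 2-fold lower or higher with the IMP1 antibody, and medians are given in the order all members, collagen chains, other members and members above 0 in both libraries.

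With equal sums the median of the collagen chains turned to 0.17, and the other medians were -0.88, -2.70 and -0.97. There, 11 members and 7 collagen chains were higher, and 13 members reached 1 FPKM with the IMP1 antibody. Of all genes, 13% were then lower and 63.7% higher, and their share at 1 FPKM was not counted on that scale. Collagen biosynthesis and secretion then had 0 lower and 13 higher, processing and cross-linking 0 and 7, proteases 3 and 5, laminins 3 and 8, receptors 2 and 10, other mesenchymal genes 6 and 9, and TGF-beta genes 3 and 8. With the median ratio set to 1, the medians were -1.13, -0.23, -3.33 and -1.77. Biosynthesis had 4 lower, processing 5 higher, proteases 3, laminins 5 and TGF-beta genes 6 higher, where 21.3% of all genes were lower and 49.3% higher. With equal sums without the 50 highest genes, the medians were -1.32, -0.28, -3.43 and -1.91. Biosynthesis had 4 lower, processing 5 higher, proteases 2, laminins 5 and TGF-beta genes 5 higher, where 23.9% of all genes were lower and 45.9% higher.

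With 1 FPKM added, the medians were -0.35, -0.12, -1.52 and -1.01, 7 collagen chains were lower and 2 higher, and 2 members were higher. Biosynthesis had 5 higher, processing 0 higher, laminins 3 lower and 0 higher, receptors 2, other mesenchymal genes 2 and TGF-beta genes 1 higher. With 0.01 FPKM added, the medians were -3.23, -1.20, -5.13 and -2.86, and 11 members, 9 collagen chains, 4 processing genes, 3 proteases and 5 laminins were higher. Among genes at 0.5 FPKM or more in a library, the medians were -3.91, -3.25, -4.51 and -3.18, and 0 processing genes, 1 laminin and 3 other mesenchymal genes were higher. For genes with both values above 0, the first 3 medians were -2.18, -1.30 and -3.01. Lower were 14 members, 6 collagen chains and 8 other members, and 0 members were higher, collagen chains included. Of all genes with both values above 0, 44.6% were lower and 1699 of 10047 higher. There, biosynthesis had 5 higher, processing 0 higher, proteases 3 lower and 0 higher, laminins 1 higher, other mesenchymal genes 7 lower and 0 higher, and TGF-beta genes 1 higher. At 4-fold, biosynthesis had 3 lower and 4 higher, proteases 3 lower, laminins 3 lower, receptors 4 lower and 1 higher, and other mesenchymal genes 6 lower. Shares of all genes are not given for the other pseudocounts, the 0.5 FPKM filter and the 4-fold threshold, so those counts have no background.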

Other observations

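Genes in this paragraph were chosen after their values were seen. Of the discoidin domain receptors, which bind collagen, DDR2, the form of mesenchymal cells, had 12.6 FPKM with IgG and was listed at 0 with the IMP1 antibody, while the epithelial form DDR1 was at similar levels in both. The laminin chain LAMA4, found in vessels and muscle, had 14.0 FPKM with IgG and 0.445 FPKM with the IMP1 antibody, and ITGA7, the laminin receptor of muscle, had 7.86 and 0.0312 FPKM. PLAU, the urokinase that activates plasminogen, had 11.5 FPKM with IgG and was listed at 0 with the IMP1 antibody. Others stood on the opposite side. LTBP3, which binds latent TGF-beta, had 15.2 FPKM with the IMP1 antibody and 0.323 FPKM with IgG. MYL9, a light chain of smooth muscle myosin, had 7.31 FPKM with the IMP1 antibody, ENG, a co-receptor for TGF-beta, had 1.19 FPKM, and both were listed at 0 with IgG.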
